A study of Lotus japonicus with 18 samples.

Results

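The CASP and dirigent gene families were followed through shoots of Lotus japonicus, a model legume, in wild type (WT) and in 2 lines described by the submitters as knockouts of LjMYB36, with and without salt. Members were the 74 of 33994 entries of the deposited expression table whose protein description names a CASP-like protein, a Casparian strip membrane protein or a dirigent protein, or whose domain text holds the dirigent domain PF03018. Of these, 42 belonged to the CASP family and 32 to the dirigent family. Names come from similarity to database proteins, most of them from other species, so a name such as Dirigent protein 19 gives the closest described relative and not a tested function.

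CASP proteins are small membrane proteins that, in the root endodermis of Arabidopsis, assemble into a belt in the plasma membrane and mark where the lignin of the Casparian strip is laid down. CASP-like proteins are their relatives in other cell types, and for most of them the role is not known. Dirigent proteins steer the coupling of phenolic radicals into lignans and lignin, and 1 branch of the family, pterocarpan synthase, closes the last ring of the pterocarpans, which are antimicrobial isoflavonoids of legumes. In Arabidopsis roots the transcription factor MYB36 switches on CASP genes and the dirigent gene ESB1. The shoots studied here are not the tissue in which that role is known.

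The groups were salt-treated and control plants of myb36 line 1, of myb36 line 2 and of WT, with 3 libraries in each of 6 groups. Salt-treated plants received Hornum nutrient solution in which NaCl was raised in steps of 50 mM every 4 days to 100 mM, with 2 days at the final level. Control plants had the same solution without NaCl, and all plants were harvested on day 34, 4 hours into the light period. The replicates are labelled biological, and it is not stated whether each was a pot of its own, so p-values measure the spread between these samples. The labels do not say what the mutations in the lines are.

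Expression was given as FPKM, fragments scaled to gene length and library size. Recovered reads came to between 42125949 and 101713201 per library. The table named 5 genes as MYB36, and none of them was at 0 in any of the 12 line libraries. The labels do not say which gene was mutated, so expression gave no check of the knockout. The most abundant of the 5, LotjaGi4g1v0091600, had 3.54 to 5.04 FPKM in the line libraries, against 6.05 to 6.60 FPKM in WT, in control plants. With salt it had 2.16 to 5.47 FPKM in the line libraries, against 0.727 to 0.987 FPKM in WT. For this gene the lines thus lay below WT in control and above it with salt, without overlap in either, though neither control difference was called. LotjaGi4g1v0298100 went the other way in control plants. It had 0.801 to 2.22 FPKM in line 1 and 0.639 to 0.891 FPKM in line 2, against 0.0425 to 0.145 FPKM in WT. For the other genes named MYB36 the libraries of both lines, pooled, overlapped WT in control. By line, LotjaGi1g1v0688400 had 2.23 to 3.15 FPKM in line 2, above the 1.07 to 1.84 FPKM of WT. LotjaGi3g1v0486500 had 0.818 to 1.01 FPKM in line 1, above the 0.420 to 0.801 FPKM of WT. Each of these genes overlapped WT in the other line, and LotjaGi3g1v0167900 overlapped WT in both lines. Shoot markers (20 of 20 tested) summed to between 46735 and 70968 FPKM per library. The 4 nodule marker genes stayed at or below 0.257 FPKM and the 2 root marker genes at or below 0.841 FPKM. The highest root marker value was that of LotjaGi3g1v0487700_LC in line 2 control replicate 1, where the other root marker, LotjaGi2g1v0429600, was at 0. That library was also the highest of its group on some genes of the Casparian strip list, picked out after their values were seen. On others, such as SCARECROW (LotjaGi1g1v0461700, 5.20 FPKM, against 5.59 and 5.03 FPKM), it was not. In that library Peroxidase 72 (LotjaGi4g1v0121800) had 4.24 FPKM and Laccase-3 (LotjaGi1g1v0114400) 1.24 FPKM, against 0.82 and 0.27 FPKM in replicate 2 and 0.39 and 0.15 FPKM in replicate 3 of the same group. The first 10 columns of the table held 23844 to 26903 genes with a read and the last 8 columns 27377 to 28132, a split that the labels do not explain and that cuts across all 6 groups. Every one of the 61 member changes called below kept its sign within each of these column sets. Those changes were called from the same libraries, with few libraries of a group in each set, so this is no test of the split. In whole shoots, fewer cells of a type and less RNA per cell cannot be told apart.

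The members covered a wide range of levels. Mean FPKM over the 18 libraries was at least 10 for 14 members, between 1 and 10 for 25 and under 1 for 35. The 5 most abundant members held 61.5% of the summed FPKM. The leading one, LotjaGi3g1v0115400 (Dirigent protein 23, chromosome 3, 14160259 to 14161451), averaged 260.5 FPKM and made up 45.7% of the dirigent family's sum. It was followed by LotjaGi1g1v0277900 (Pterocarpan synthase 1) with 74.9 FPKM, LotjaGi3g1v0115600 (Dirigent protein 21) with 71.9, LotjaGi4g1v0346000 (CASP-like protein 1E1) with 42.5 and LotjaGi5g1v0358000 (Dirigent protein 9) with 37.2. All 5 genes of the CASP-like 2 subgroup and all 4 pterocarpan synthase genes were expressed well enough to test. Of the 10 CASP-like 1 genes only 5 were.

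**Figure D1:**
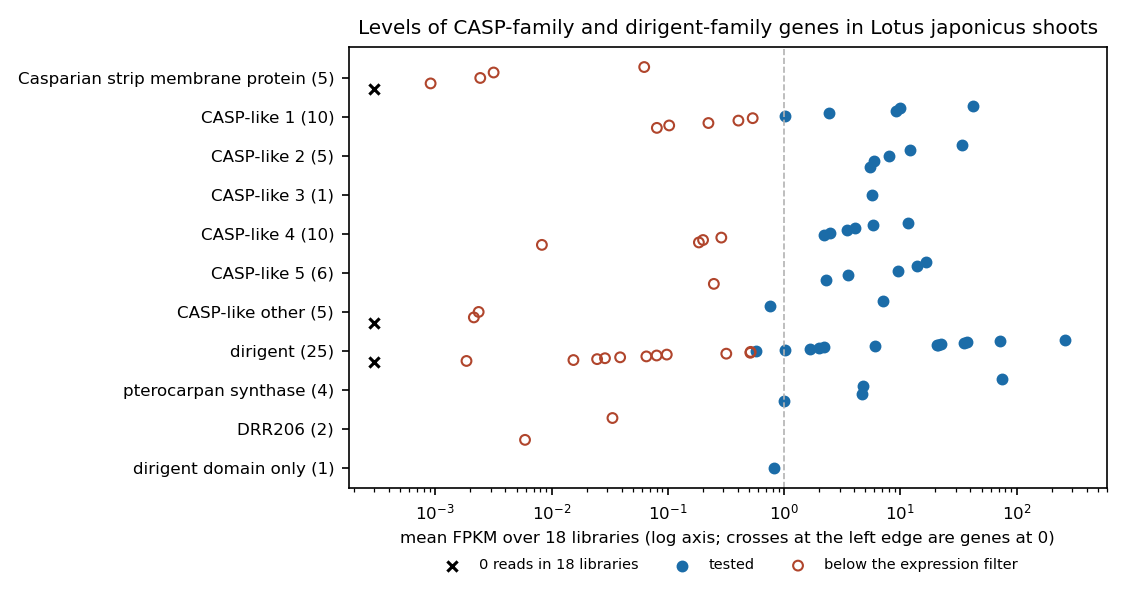
Mean FPKM of each of the 74 members over 18 libraries, on a log axis, with 1 row per subgroup and the number of its members in brackets. The 5 Casparian strip membrane protein genes lie at the low end, with 1 of them at 0, and Dirigent protein 23 at 260.5 FPKM lies farthest to the right.

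The Casparian strip membrane protein genes, the members closest to the root CASPs, were near 0 in these shoots. The 5 genes gathered 85 reads over all 18 libraries. Of those, 78 belonged to LotjaGi5g1v0099800 (Casparian strip membrane protein 5), and 60 of the 78 came from line 2 salt replicate 1, where the gene reached 0.906 FPKM. LotjaGi5g1v0099800 had 12 reads in line 2 control replicate 1 and at most 2 in any other library. Both root marker genes were at 0 in line 2 salt replicate 1, and their highest value of 0.841 FPKM was in line 2 control replicate 1. LotjaGi3g1v0178400 (protein 3) and LotjaGi5g1v0102500 (protein 4) had 3 reads each and LotjaGi5g1v0100000 (protein 4) had 1. LotjaGi1g1v0619100 (protein 3) had 0 reads, which allows up to 0.0294 FPKM in the deepest library and 0.0786 FPKM in the shallowest. No difference between genotypes or treatments was detectable for these genes at this depth.

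In Arabidopsis ESB1 is Dirigent protein 10, and Dirigent proteins 9, 16, 18, 24 and 25 also take part in lignin deposition at the strip. Of the 6 genes found under these names, only LotjaGi5g1v0358000 (Dirigent protein 9) passed the expression filter of at least 1 FPKM in at least 3 libraries. LotjaGi5g1v0358000 had 40.9, 37.4 and 37.8 FPKM in line 1 with salt, 41.1, 39.5 and 42.2 FPKM in line 2 with salt, and 34.2, 31.2 and 34.0 FPKM in WT with salt. All 6 line libraries were above the 3 WT libraries, by a small margin. The log2 change was 0.22 in line 1 (SE 0.07, limma adjusted p = 0.0447) and 0.30 in line 2 (adjusted p = 0.00527). The call in line 1 did not survive any of the 6 left-out libraries (adjusted p 0.0556 to 0.176) or 4 other settings, with TPM rescaling the highest (adjusted p = 0.212). The call in line 2 was lost with only the 2 compared groups in the fit (adjusted p = 0.0567). LotjaGi4g1v0300800_LC (Dirigent protein 25) had 2159 reads over all 18 libraries and between 0.150 and 1.27 FPKM. LotjaGi6g1v0012100 (Dirigent protein 16) had 593 reads, of which 162 were in line 2 salt replicate 1. LotjaGi2g1v0368200 and LotjaGi5g1v0358100_LC (both Dirigent protein 25) had 37 and 3 reads, and LotjaGi2g1v0367900 (Dirigent protein 24) had 0.

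In control plants the knockout lines differed from WT by higher levels of a few members. Of the 42 tested members, 7 were higher and 0 lower in line 1, which is 16.7% of them. Of all 20433 genes tested 11.7% were called, 7.37% higher and 4.31% lower. In line 2 also 7 were higher and 0 lower (16.7%), against 12.6% of all genes, with 7.22% higher and 5.35% lower. A gene was called at a limma p under 0.05 after Benjamini-Hochberg adjustment over all tested genes. The median log2 change of the members was 0.24 in line 1 and 0.14 in line 2, beside 0.00 and -0.01 over all genes. The 2 comparisons share the WT libraries. The count in line 1 was 4 without WT control replicate 1 or WT control replicate 3, 2 without line 1 control replicate 2, 3 without line 1 control replicate 3, and 4 when the fit held the compared groups alone. The count in line 2 was 4 without WT control replicate 1, WT control replicate 3, line 2 control replicate 1 or line 2 control replicate 2, and 3 without line 2 control replicate 3.

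With salt more members were called between the lines and WT. In line 1, 13 tested members were higher and 1 was lower than in WT, or 33.3% of the members, against 16% of all genes with 11.2% higher and 4.77% lower. In line 2, 15 were higher and 2 lower, or 40.5%, against 25.1% of all genes with 14.9% higher and 10.2% lower. The median log2 change of the members was 0.18 in line 1 and 0.27 in line 2, beside 0.01 and 0.00 over all genes. By family, 5 of 24 CASP members and 9 of 18 dirigent members were called in line 1, and 9 of 24 and 8 of 18 in line 2. All 4 pterocarpan synthase genes were higher in both lines.

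**Figure D2:**
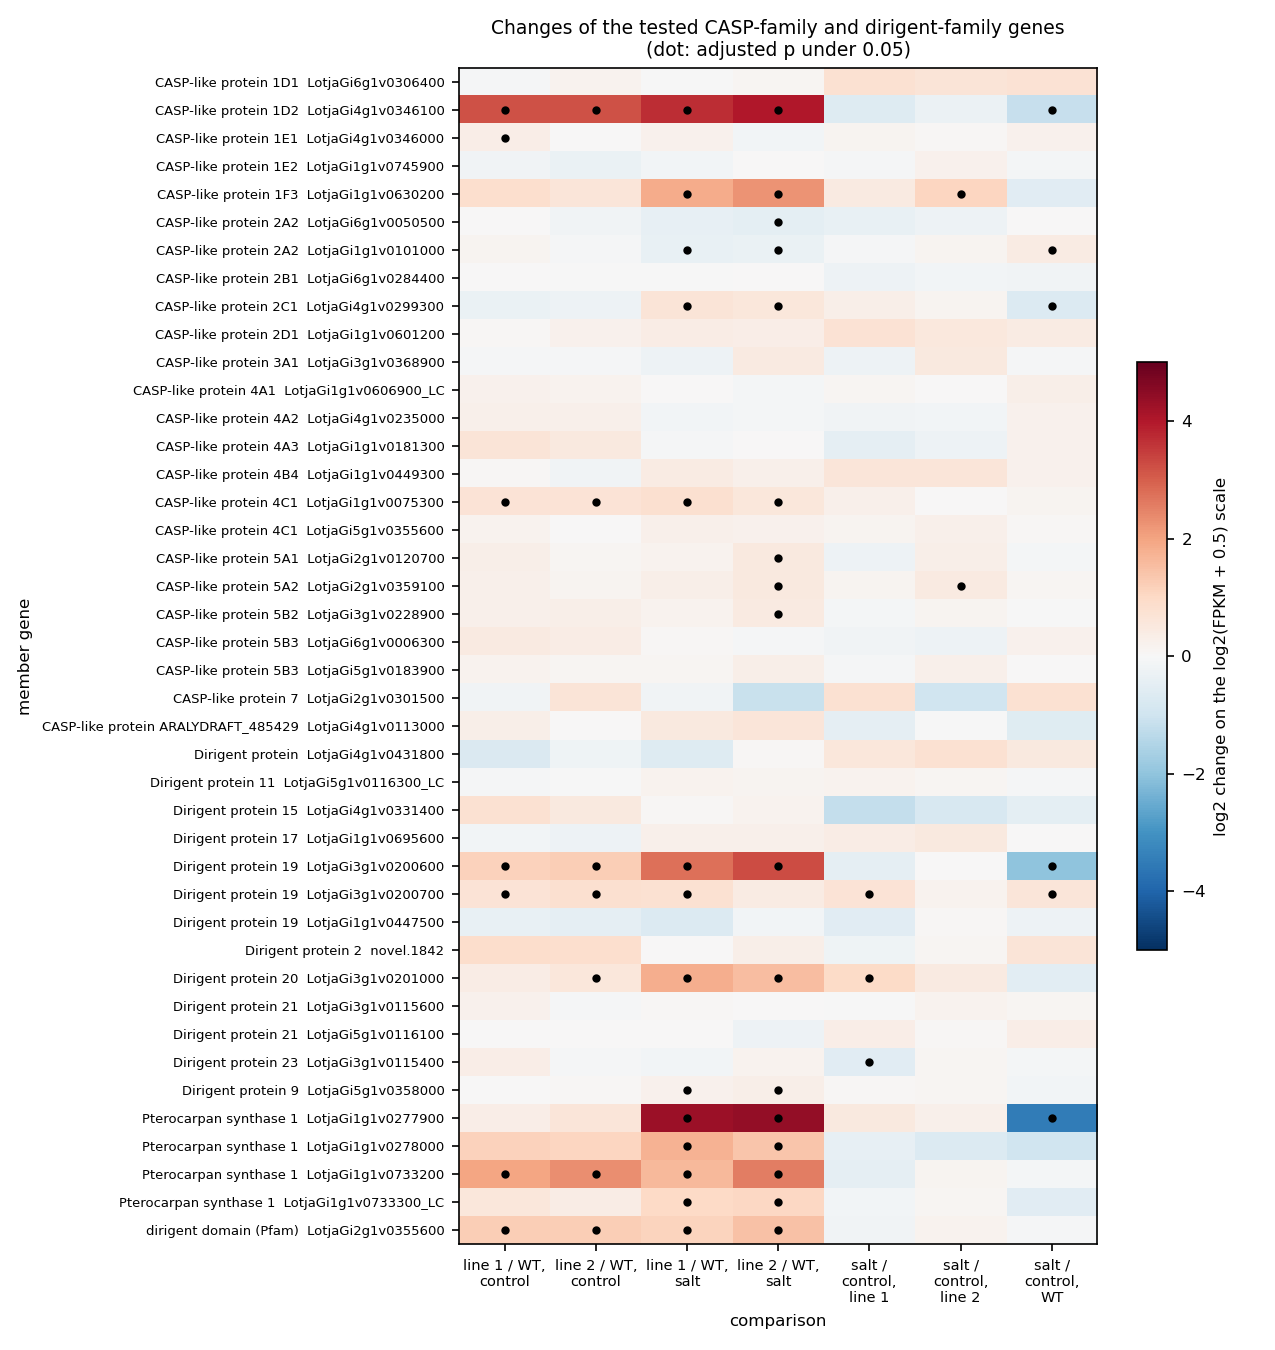
Log2 change, on the log2(FPKM + 0.5) scale, of the 42 tested members (rows) in 7 comparisons (columns), with a dot where the adjusted p was under 0.05. The darkest red cells are Pterocarpan synthase 1 (LotjaGi1g1v0277900) in both comparisons of a line with WT with salt, CASP-like protein 1D2 is dark red in all 4 comparisons of a line with WT, and the darkest blue cell is that same pterocarpan synthase in WT with salt.

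Among the CASP family, LotjaGi4g1v0346100 (CASP-like protein 1D2, chromosome 4, 72560820 to 72562458, plus strand) separated the lines from WT most widely. In control plants it had 15.1, 21.8 and 14.1 FPKM in line 1 and 14.3, 16.2 and 18.7 FPKM in line 2, against 0.791, 1.88 and 1.62 FPKM in WT. With salt it had 8.43, 14.4 and 9.62 FPKM in line 1 and 17.5, 12.4 and 10.6 FPKM in line 2, against 0.227, 0.429 and 0.410 FPKM in WT. The lowest of the 12 line libraries lay well above the highest WT library. The ratio of means was 11.9 in line 1 and 11.5 in line 2 in control plants, and 30.5 and 38.1 with salt. On the log2(FPKM + 0.5) scale, which understates changes of low genes, the change in control plants was 3.20 in line 1 (SE 0.25, limma adjusted p = 2.38e-07) and 3.17 in line 2 (adjusted p = 2.07e-07). With salt it was 3.70 in line 1 (adjusted p = 2.13e-08) and 4.01 in line 2 (adjusted p = 7.4e-09). These calls held in every alternative, with log2 values with salt of 4.89 and 5.19 by limma voom on the recovered reads and of 3.10 and 3.40 with a pseudocount of 1. In WT the gene was lower with salt (0.355 ± 0.112 FPKM, against 1.43 ± 0.567 FPKM in control, SD, n = 3), a log2 change of -1.13 (limma adjusted p = 0.00339) that voom did not call (log2 -1.79, adjusted p = 0.236).

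The gene next to it changed little. LotjaGi4g1v0346000 (CASP-like protein 1E1) lies on the opposite strand with a gap of 10.1 kb and had between 33.5 and 53.9 FPKM in all 18 libraries. It averaged 46.3 ± 1.08 FPKM in line 1 and 38.0 ± 4.08 FPKM in line 2, against 37.1 ± 4.37 FPKM in WT (control plants, SD, n = 3 each). Its log2 change of 0.32 in line 1 (limma adjusted p = 0.0461) was lost in 8 alternatives, among them TPM rescaling (adjusted p = 0.0553), only the compared groups (adjusted p = 0.123) and the absence of WT control replicate 1 (adjusted p = 0.130), WT control replicate 3 (adjusted p = 0.210), or line 1 control replicate 1, 2 or 3 (adjusted p 0.0690, 0.144 and 0.110).

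LotjaGi1g1v0630200 (CASP-like protein 1F3, chromosome 1, 118328801 to 118330546) was higher in both lines with salt. It had 7.39, 11.9 and 21.5 FPKM in line 1 and 18.7, 14.1 and 16.9 FPKM in line 2, against 2.39, 3.53 and 3.50 FPKM in WT. The line 1 libraries were spread widely, and none reached down to WT. The log2 change was 1.84 in line 1 (SE 0.29, limma adjusted p = 0.000209) and 2.24 in line 2 (adjusted p = 2.1e-05). In control plants it averaged 9.17 ± 3.20 FPKM in line 1 and 7.59 ± 0.618 FPKM in line 2, against 4.82 ± 0.910 FPKM in WT, and neither difference was called (adjusted p = 0.0744 and 0.186).

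The CASP-like 2 genes moved in smaller steps and in both directions. LotjaGi4g1v0299300 (CASP-like protein 2C1) had with salt 6.37, 6.62 and 7.40 FPKM in line 1 and 6.04, 5.67 and 7.60 FPKM in line 2, against 3.72, 3.72 and 5.30 FPKM in WT. All 6 line libraries were above the WT libraries, with log2 changes of 0.63 in line 1 (limma adjusted p = 0.00629) and 0.55 in line 2 (adjusted p = 0.0105). The line 2 call was lost without WT salt replicate 2 (adjusted p = 0.0522), without line 2 salt replicate 3 (adjusted p = 0.0572) and with only the compared groups (adjusted p = 0.0722). LotjaGi1g1v0101000 (CASP-like protein 2A2) went the other way, with 31.2, 33.8 and 32.9 FPKM in line 1 and 33.4, 29.8 and 35.5 FPKM in line 2, against 38.7, 40.2 and 47.3 FPKM in WT, all with salt. Its log2 changes were -0.36 in line 1 (adjusted p = 0.0144) and -0.35 in line 2 (adjusted p = 0.0115). Without WT salt replicate 3 they were -0.27 (adjusted p = 0.0812) and -0.26 (adjusted p = 0.0635). They were also lost without line 1 salt replicate 1 (adjusted p = 0.0515), without line 2 salt replicate 2 (adjusted p = 0.0583) and with only the compared groups (adjusted p = 0.0852 and 0.0733). A second gene of that name, LotjaGi6g1v0050500, averaged 9.77 ± 1.60 FPKM in line 2 and 13.9 ± 0.782 FPKM in WT with salt (log2 -0.49, adjusted p = 0.0375), a call lost without any 1 of 5 of the 6 libraries compared (adjusted p 0.0591 to 0.137).

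Among the CASP-like 4 and 5 genes the calls were small. LotjaGi1g1v0075300 (CASP-like protein 4C1), singled out after its values were seen, was higher in both lines in both conditions. It averaged 6.35 ± 0.780 FPKM in line 1 and 6.42 ± 0.798 FPKM in line 2, against 3.81 ± 0.848 FPKM in WT, in control plants. With salt it averaged 7.69 ± 0.284 FPKM in line 1 and 6.60 ± 1.69 FPKM in line 2, against 4.24 ± 0.372 FPKM in WT. The 4 log2 changes ran from 0.56 to 0.79, and the line 1 and line 2 libraries lay above WT in each. The limma adjusted p values were 0.0114 and 0.00913 in control plants and 0.00263 and 0.0184 with salt. In control plants both calls were lost without WT control replicate 3 (adjusted p = 0.0678 in line 1 and 0.0562 in line 2), and also without line 1 control replicate 2 (adjusted p = 0.0653), without line 2 control replicate 3 (adjusted p = 0.0519) and, in line 1, with only the compared groups (adjusted p = 0.0518). The line 2 call with salt was lost without WT salt replicate 2 (adjusted p = 0.0742), without line 2 salt replicate 1 (adjusted p = 0.0916) and with only the compared groups (adjusted p = 0.0733). In line 2 with salt 3 CASP-like 5 genes were higher than in WT. LotjaGi2g1v0359100 (protein 5A2) averaged 17.6 ± 2.03 FPKM against 12.4 ± 1.87 FPKM (log2 0.49, adjusted p = 0.00536, or 0.0506 with only the compared groups). LotjaGi2g1v0120700 (protein 5A1) and LotjaGi3g1v0228900 (protein 5B2), also picked out after their values were seen, changed by 0.49 (adjusted p = 0.00657) and 0.45 (adjusted p = 0.00944).

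In the dirigent family the widest gap with salt was that of a pterocarpan synthase gene. LotjaGi1g1v0277900 (Pterocarpan synthase 1, chromosome 1, 68067649 to 68068676, plus strand) had 101, 133 and 82.8 FPKM in line 1 and 115, 108 and 106 FPKM in line 2, against 8.74, 2.06 and 5.76 FPKM in WT, all with salt. In control plants it had 57.8, 87.3 and 81.2 FPKM in line 1 and 75.3, 95.9 and 106 FPKM in line 2, against 46.3, 55.1 and 82.1 FPKM in WT. The groups did not overlap with salt and did overlap without it. The log2 change with salt was 4.30 in line 1 (SE 0.34, limma adjusted p = 1.23e-07) and 4.38 in line 2 (adjusted p = 8.03e-08), and in control plants it was 0.32 (adjusted p = 0.625) and 0.62 (adjusted p = 0.272).

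The other 3 pterocarpan synthase genes were expressed at lower levels. LotjaGi1g1v0278000, the next member on the same strand with a gap of 8.22 kb, had with salt 5.79, 8.26 and 2.81 FPKM in line 1 and 2.01, 6.18 and 4.60 FPKM in line 2, against 1.28, 1.21 and 1.11 FPKM in WT. Its log2 change was 1.74 in line 1 (limma adjusted p = 0.00325) and 1.37 in line 2 (adjusted p = 0.0114), and without line 2 salt replicate 2 the line 2 change was 1.07 (adjusted p = 0.0609). In control plants LotjaGi1g1v0278000 had 4.59, 10.6 and 6.83 FPKM in line 1 and 6.47, 6.29 and 7.16 FPKM in line 2. WT had 1.96, 3.97 and 2.98 FPKM there, below both lines without overlap, though neither control difference was called. LotjaGi1g1v0733200, farther along the same chromosome (130499084 to 130529830), was higher in the lines whether or not salt was given. It had 5.62, 6.95 and 4.82 FPKM in line 1 and 13.3, 5.48 and 5.58 FPKM in line 2, against 0.580, 1.16 and 1.69 FPKM in WT, in control plants. With salt it had 4.82, 4.50 and 3.23 FPKM in line 1 and 11.2, 8.36 and 5.91 FPKM in line 2, against 0.927, 0.549 and 1.69 FPKM in WT. The value of 13.3 FPKM came from line 2 control replicate 1, the library with the highest value of 1 root marker and with the other root marker at 0. The line 2 call in control plants held without that library, and the other 2 libraries of that group were also above WT. Why that library was high was not tested. No line library fell to the WT range, and the log2 changes were 1.98 and 2.34 in control plants (limma adjusted p = 0.000997 and 0.000191, with 2.99 in line 2 by voom) and 1.64 and 2.56 with salt (adjusted p = 0.00305 and 3.66e-05). Its neighbour LotjaGi1g1v0733300_LC averaged 1.22 ± 0.452 FPKM in line 1 and 1.22 ± 0.125 FPKM in line 2, against 0.346 ± 0.157 FPKM in WT, with salt. The log2 changes of 1.01 (adjusted p = 0.00633) and 1.04 (adjusted p = 0.00356) were 1.82 and 1.86 by voom, and the line 1 call was lost with only the compared groups (adjusted p = 0.0506).

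**Figure D3:**
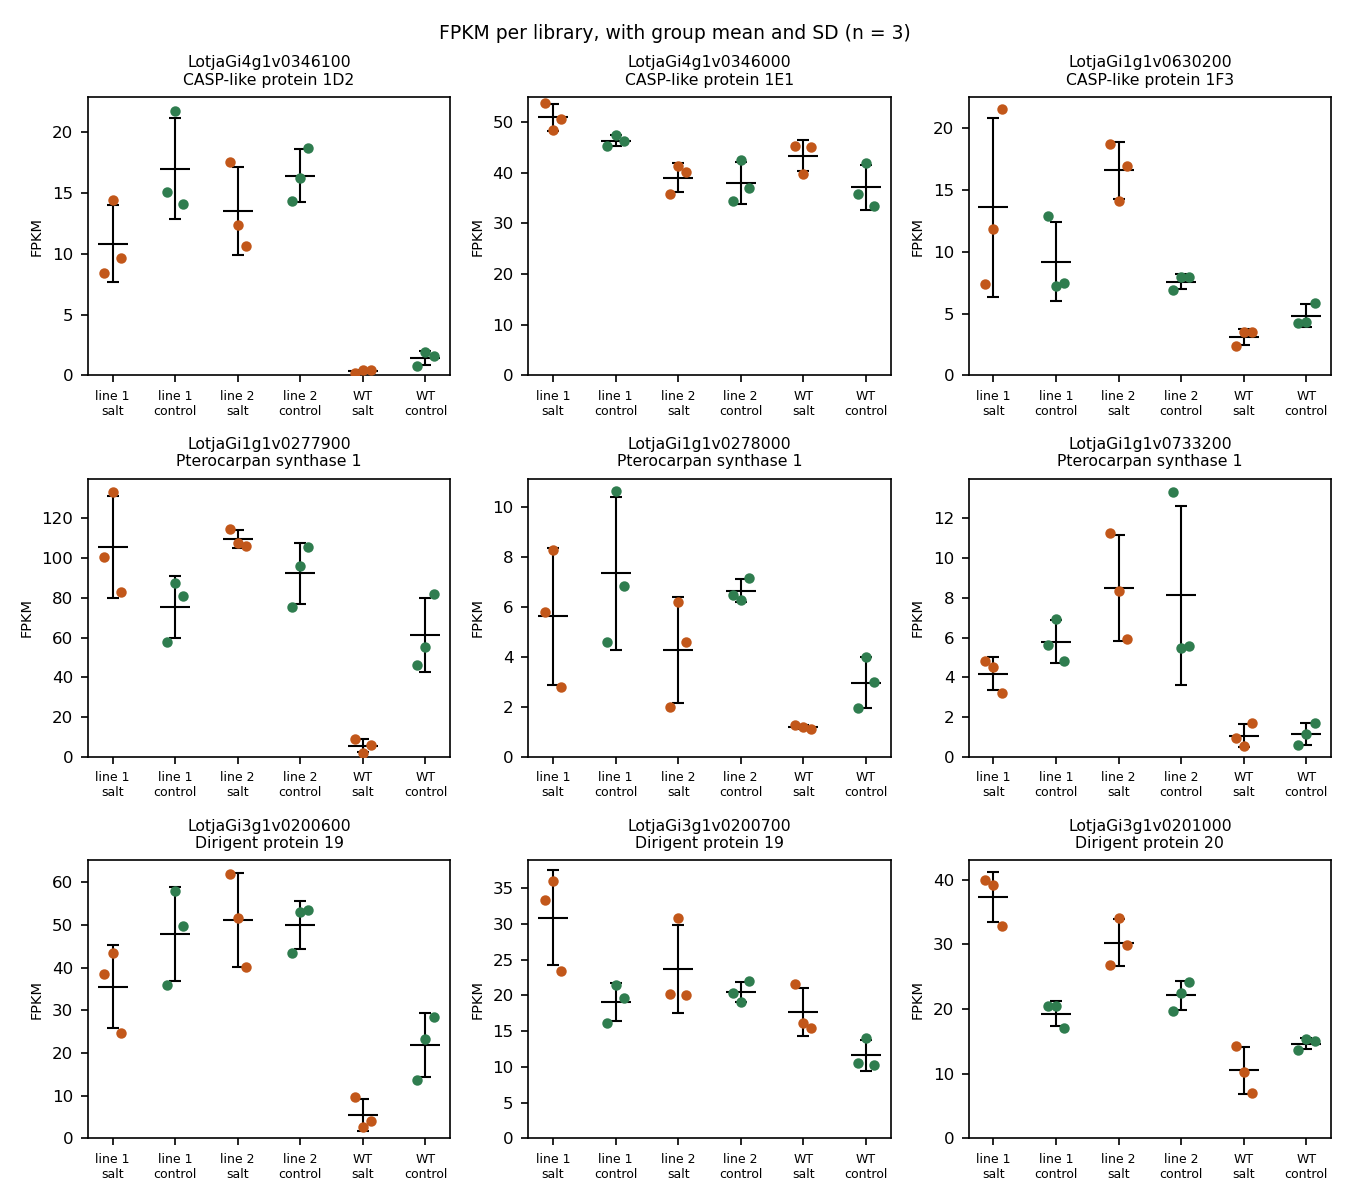
FPKM in each of the 18 libraries for 9 members, 1 panel per gene, with salt libraries in orange, control libraries in green, and bars for the group mean and SD (n = 3). CASP-like protein 1D2 is high in every line group and near 0 in WT, while LotjaGi1g1v0277900 (Pterocarpan synthase 1) drops in WT with salt alone, to between 2.06 and 8.74 FPKM.

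A group of 4 dirigent genes on chromosome 3 (29233885 to 29310068, all on the plus strand) held 3 tested members, which differed in pattern. LotjaGi3g1v0200600 (Dirigent protein 19) had with salt 38.4, 43.5 and 24.8 FPKM in line 1 and 61.9, 51.6 and 40.1 FPKM in line 2, against 9.80, 2.64 and 3.96 FPKM in WT. In control plants it had 35.98, 58.0 and 49.8 FPKM in line 1 and 43.6, 53.0 and 53.6 FPKM in line 2, against 13.7, 23.2 and 28.5 FPKM in WT. The lines were above WT in both conditions and the gap was wider with salt. The log2 change with salt was 2.74 in line 1 (SE 0.35, limma adjusted p = 3.15e-05) and 3.28 in line 2 (adjusted p = 3.37e-06). In control plants it was 1.15 (adjusted p = 0.0436) and 1.24 (adjusted p = 0.0289), and without WT control replicate 1 these were 0.86 (adjusted p = 0.194) and 0.94 (adjusted p = 0.147). The line 1 call in control plants was lost in 8 alternatives in all, among them WT control replicate 2 left out (adjusted p = 0.0646) and line 1 control replicate 2 or 3 left out (adjusted p = 0.167 and 0.117). The line 2 call in control plants was lost in 5, among them line 2 control replicate 1, 2 or 3 left out (adjusted p = 0.0544, 0.0910 and 0.0921).

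LotjaGi3g1v0201000 (Dirigent protein 20), at the end of the same group, had with salt 40.0, 39.3 and 32.9 FPKM in line 1 and 26.9, 34.0 and 29.9 FPKM in line 2, against 14.3, 10.2 and 6.98 FPKM in WT. The log2 change was 1.84 in line 1 (SE 0.18, limma adjusted p = 1.39e-06) and 1.53 in line 2 (adjusted p = 8.13e-06). In control plants the values were closer, 19.3 ± 1.96 FPKM in line 1 and 22.1 ± 2.24 FPKM in line 2, against 14.7 ± 0.899 FPKM in WT. Only line 2 was called there (log2 0.57, adjusted p = 0.0453), and leaving out any 1 of the 6 libraries compared ended that call (adjusted p 0.0599 to 0.157). LotjaGi3g1v0200700, the middle gene and also named Dirigent protein 19, averaged 19.1 ± 2.70 FPKM in line 1 and 20.5 ± 1.43 FPKM in line 2, against 11.6 ± 2.16 FPKM in WT, in control plants (log2 0.70 and 0.80, limma adjusted p = 0.0257 and 0.0103). Without WT control replicate 3 these calls were lost (adjusted p = 0.112 and 0.0531). The line 1 call was also lost without WT control replicate 1 or line 1 control replicate 2 or 3 (adjusted p = 0.0927, 0.115 and 0.0796). With salt LotjaGi3g1v0200700 averaged 30.9 ± 6.60 FPKM in line 1 and 23.7 ± 6.16 FPKM in line 2, against 17.7 ± 3.37 FPKM in WT. The log2 change was 0.78 in line 1 (adjusted p = 0.0102, or 0.0507 without WT salt replicate 3 and 0.0578 without line 1 salt replicate 2) and 0.39 in line 2 (adjusted p = 0.150). The first gene of the group, LotjaGi3g1v0200500, had 70 reads over all libraries.

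LotjaGi2g1v0355600, a gene with a dirigent domain and no protein name, was picked out after its values were seen. It had 0.871, 0.870 and 1.60 FPKM in line 1 and 1.05, 1.07 and 1.06 FPKM in line 2, against 0, 0.228 and 0.310 FPKM in WT, in control plants. With salt it had 0.414, 0.880 and 1.66 FPKM in line 1 and 2.55, 0.997 and 0.739 FPKM in line 2, against 0.262, 0.183 and 0 FPKM in WT. Every line library was above every WT library, with between 26 and 188 reads in the line libraries and at most 25 in WT. The log2 changes were 1.25 and 1.23 in control plants (limma adjusted p = 0.0257 and 0.0261) and 1.13 and 1.48 with salt (adjusted p = 0.0338 and 0.00458). In the same order they were 4.10, 4.20, 3.89 and 4.30 by voom, with adjusted p values of 0.0835, 0.0661, 0.0921 and 0.0372. The call in line 1 in control plants was lost without WT control replicate 1 or line 1 control replicate 2 or 3 (adjusted p = 0.113, 0.0519 and 0.119), and in line 2 without WT control replicate 1 or line 2 control replicate 1, 2 or 3 (adjusted p = 0.116, 0.0712, 0.0753 and 0.0751). With salt the line 1 call was lost without WT salt replicate 2 or 3 or line 1 salt replicate 2 or 3 (adjusted p = 0.0700, 0.130, 0.0814 and 0.153), with a pseudocount of 1 (adjusted p = 0.0523), without the filter (adjusted p = 0.0550) and with only the compared groups (adjusted p = 0.0875).

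Salt alone changed few members in WT, and at a share close to that of all genes. Of the 42 tested, 2 rose and 4 fell, or 14.3%, against 16.3% of all genes with 6.35% up and 9.91% down, and with a median log2 change of -0.01 beside 0.01. With the first principal component of the within-group residuals as a covariate 10 members were called. That component was taken from these same data, so the covariate lowers the residual spread by construction. LotjaGi1g1v0277900 (Pterocarpan synthase 1) fell furthest, to 5.52 ± 3.35 FPKM with salt, against 61.2 ± 18.6 FPKM in control (SD, n = 3 each, log2 -3.50, SE 0.34, limma adjusted p = 1.04e-06). LotjaGi3g1v0200600 (Dirigent protein 19) fell to 5.47 ± 3.81 FPKM, against 21.8 ± 7.49 FPKM (log2 -2.02, adjusted p = 0.000485). Neither gene's salt libraries overlapped its control libraries. The other falls were those of CASP-like protein 1D2, given above, and of LotjaGi4g1v0299300 (CASP-like protein 2C1), with 4.25 ± 0.915 FPKM with salt and 6.99 ± 0.549 FPKM in control (log2 -0.67, adjusted p = 0.0034). LotjaGi1g1v0101000 (CASP-like protein 2A2) rose to 42.1 ± 4.59 FPKM, against 31.5 ± 1.61 FPKM (log2 0.41, adjusted p = 0.0051). LotjaGi3g1v0200700 (Dirigent protein 19) rose by 0.59 on the log2 scale (adjusted p = 0.0462), a call lost in 8 alternatives, among them voom (adjusted p = 0.0530) and WT control replicate 1 or 3 or WT salt replicate 1 or 2 left out (adjusted p = 0.141, 0.165, 0.188 and 0.0690).

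Salt changed 3 members in line 1, where 2 were higher and 1 was lower. That is 7.14% of the tested members, against 8.61% of all genes with 4.19% up and 4.42% down. LotjaGi3g1v0201000 (Dirigent protein 20) rose to 37.4 ± 3.89 FPKM with salt, against 19.3 ± 1.96 FPKM in control (log2 0.94, SE 0.18, limma adjusted p = 0.00297), without overlap. LotjaGi3g1v0115400 (Dirigent protein 23), the most abundant member, had 228, 189 and 244 FPKM with salt, against 320.1, 301 and 352 FPKM in control (log2 -0.56, adjusted p = 0.018). That fall was not called without line 1 control replicate 3 (adjusted p = 0.0823), without line 1 salt replicate 2 (adjusted p = 0.0813) or with only the compared groups (adjusted p = 0.0715). LotjaGi3g1v0200700 rose by 0.67 (adjusted p = 0.0399), a call that ended in 7 alternatives, among them line 1 control replicate 1, 2 or 3 left out (adjusted p = 0.145, 0.0547 and 0.0872) and line 1 salt replicate 1 or 2 left out (adjusted p = 0.134 and 0.140). The count of 3 was 1 without line 1 control replicate 3 and 1 with only the compared groups.

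In line 2, 2 members rose with salt and 0 fell, or 4.76%, against 8.66% of all genes with 4.24% up and 4.42% down. LotjaGi1g1v0630200 (CASP-like protein 1F3) had 18.7, 14.1 and 16.9 FPKM with salt, against 6.88, 7.92 and 7.97 FPKM in control, without overlap (log2 1.07, SE 0.29, limma adjusted p = 0.0293). LotjaGi2g1v0359100 (CASP-like protein 5A2) averaged 17.6 ± 2.03 FPKM with salt and 12.7 ± 1.12 FPKM in control (log2 0.46, adjusted p = 0.0232, or 0.0505 with only the compared groups). Both calls were lost with TPM rescaling (adjusted p = 0.0755 and 0.102) and without line 2 control replicate 2 (adjusted p = 0.0734 and 0.106), line 2 control replicate 3 (adjusted p = 0.0770 and 0.0596), line 2 salt replicate 1 (adjusted p = 0.0833 and 0.0670) or line 2 salt replicate 3 (adjusted p = 0.0766 and 0.0854), so that the count was 0 in each of those 5. The call for LotjaGi1g1v0630200 was also lost without line 2 control replicate 1 (adjusted p = 0.0981) and without the expression filter (adjusted p = 0.0576).

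The salt response itself differed between the lines and WT for 5 members, 11.9% of those tested, against 8.16% of all genes with 5.89% positive and 2.27% negative. The value is the salt effect averaged over both lines, less that of WT, and all 5 differences were positive. For LotjaGi1g1v0277900 (Pterocarpan synthase 1) the salt effect was 0.48 in line 1 and 0.26 in line 2, against -3.50 in WT, a difference of 3.87 (SE 0.42, limma adjusted p = 1.28e-05). For LotjaGi3g1v0200600 (Dirigent protein 19) it was -0.44 and 0.02, against -2.02, a difference of 1.81 (adjusted p = 0.0135). These 2 genes fell in WT with salt and were not called in either line.

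LotjaGi3g1v0201000 (Dirigent protein 20) had salt effects of 0.94 in line 1 and 0.44 in line 2, against -0.52 in WT (difference 1.21, limma adjusted p = 0.00172). LotjaGi1g1v0630200 (CASP-like protein 1F3) had 0.46 and 1.07, against -0.55 (difference 1.32, adjusted p = 0.0261). LotjaGi4g1v0299300 (CASP-like protein 2C1) had 0.31 and 0.14, against -0.67 (difference 0.90, adjusted p = 0.00365). CASP-like protein 1D2 was not among them, with -0.64 in line 1 and -0.29 in line 2, against -1.13 in WT (difference 0.67, adjusted p = 0.226). Without WT control replicate 3 the count was 3. The difference for LotjaGi3g1v0200600 was then 1.59 (adjusted p = 0.0536), and without WT salt replicate 2 it was 1.44 (adjusted p = 0.0529). The difference for LotjaGi1g1v0630200 was 1.18 without WT control replicate 3 (adjusted p = 0.0881) and 1.16 without WT salt replicate 1 (adjusted p = 0.0743), and it was not called by voom (adjusted p = 0.0771), without the filter (adjusted p = 0.0578) or with TPM rescaling (adjusted p = 0.0565).

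**Figure D4:**
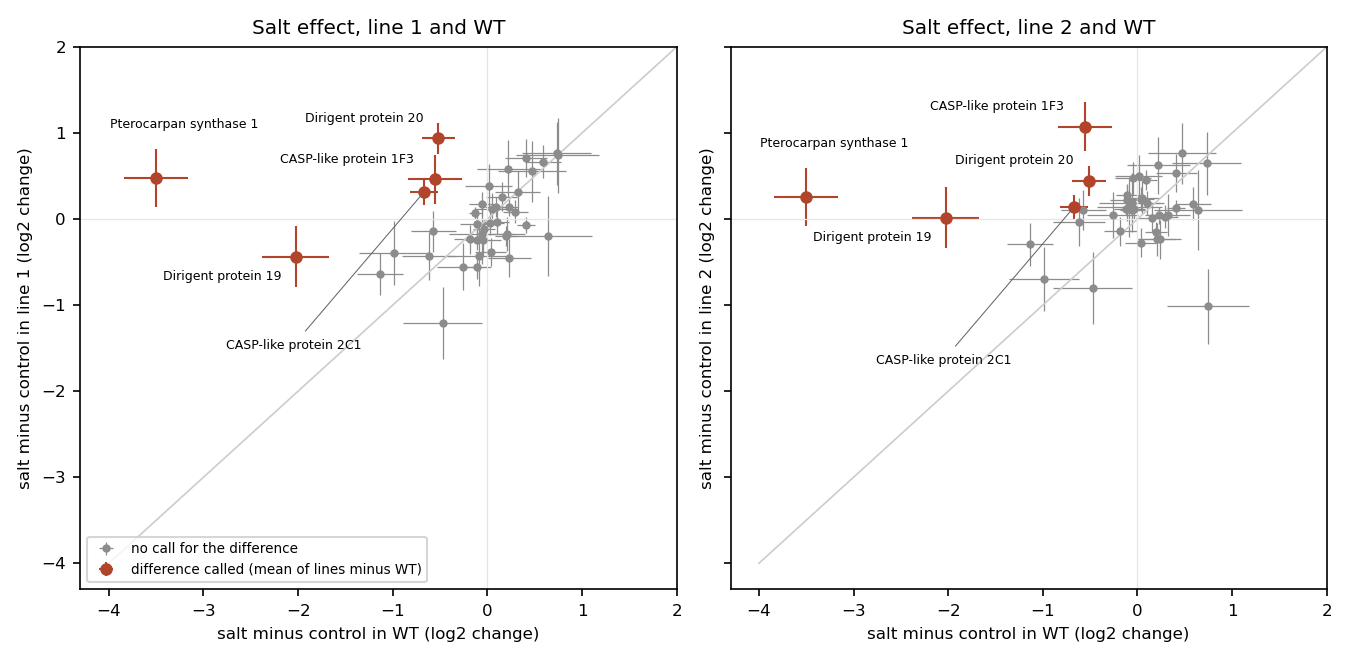
Salt effect (salt minus control, log2 change on the log2(FPKM + 0.5) scale, with SE) of the 42 tested members in line 1 (left) and line 2 (right) against the same in WT, with the 5 members whose difference was called in red and a line of equal effect in grey. Pterocarpan synthase 1 sits at -3.50 in WT and above 0 in both lines.

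Line 2 was also set against line 1. In this comparison limma called 0 of 42 in control plants (0.147% of all genes) and 0 of 42 with salt (1.74%). At an unadjusted p under 0.05 there were 2 and 6. The share of all genes at that looser threshold was not computed, so these 2 counts cannot be set against it. With salt the count was 1 with the replicate number as a block and 3 with the first principal component as a covariate. The smallest adjusted p values with salt were those of LotjaGi3g1v0368900 (CASP-like protein 3A1), which had 7.59, 7.77 and 7.80 FPKM in line 2 and 4.69, 4.68 and 4.12 FPKM in line 1 (log2 0.72, SE 0.19, adjusted p = 0.0653), and of LotjaGi4g1v0346000 (CASP-like protein 1E1), which averaged 39.1 ± 2.93 FPKM in line 2 and 51.0 ± 2.70 FPKM in line 1 (log2 -0.38, adjusted p = 0.068). In both cases the 2 groups did not overlap. Both genes were singled out for these values.

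Of the 42 tested members, 20 were called in at least 1 of the 10 comparisons and 22 in none. The share of all genes called in at least 1 of them was not computed, so these counts only describe the members. For 10 of those 22 the highest group mean was less than 1.5 times the lowest. They include LotjaGi3g1v0115600 (Dirigent protein 21), the third most abundant member, at 56.9 to 92.0 FPKM over all libraries, which lies 8.33 kb from Dirigent protein 23. An assembled transcript described as Dirigent protein 2, on the other side of Dirigent protein 23, had 0.829 FPKM in WT control replicate 1 and between 3.45 and 9.14 FPKM in the other 17 libraries, and was not called. No CASP-like 3 gene was called, and 1 of the 6 tested CASP-like 4 genes was.

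The 32 members under the expression filter had between 0 and 2159 reads, the highest being that of LotjaGi4g1v0300800_LC (Dirigent protein 25). For 10 of them there were under 10 reads over all 18 libraries, 3 had none, and 11 had over 50% of their reads in a single library. LotjaGi3g1v0198100 (Dirigent protein 20), for example, had 32 reads, all in line 2 salt replicate 1. Fitted without the filter, 29 of these members gave values, and limma called 0 of them in each comparison but line 2 against WT with salt, where 1 was called. That was LotjaGi3g1v0454600 (CASP-like protein 1C1), with 59, 15 and 48 reads in line 2 and 1, 12 and 0 reads in WT (log2 0.76, adjusted p = 0.0218).

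Many members lie side by side. Within 50 kb of each other there were 31 members in 14 groups, the largest holding 4 genes, and 43 stood alone. Side-by-side members did not always share a level or a change, as the CASP-like pair on chromosome 4 and the Dirigent protein 23 group show. Reads of near-identical neighbours may be shared or split by the counting, which could touch the pterocarpan synthase and Dirigent protein 19 genes, and how alike their sequences are was not analysed here.

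Genes that act with the members were read from lists of protein names. In WT with salt, 8 of 12 tested genes of the pterocarpan pathway fell and 0 rose, with a median log2 change of -1.45 beside 0.01 over all genes, of which 9.91% fell and 6.35% rose. Vestitone reductase, which makes the substrate of pterocarpan synthase, was at 113 ± 16.7 FPKM in line 1 and 151 ± 21.1 FPKM in line 2, against 13.9 ± 4.48 FPKM in WT, with salt (LotjaGi1g1v0461900, log2 3.03 and 3.44, limma adjusted p = 2.72e-08 and 5.95e-09). Isoflavone 2'-hydroxylase, an earlier enzyme, was at 91.8 ± 12.3 FPKM in line 1 and 96.8 ± 11.2 FPKM in line 2, against 15.8 ± 4.02 FPKM in WT (LotjaGi4g1v0019000, log2 2.52 and 2.60). A second vestitone reductase gene, LotjaGi1g1v0462000, had 4.73 to 6.63 FPKM in WT with salt and 4.98 to 5.21 FPKM in WT control. In the lines it had 12.2 to 19.4 FPKM with salt and 10.5 to 14.8 FPKM in control. With salt 9 of the 12 were higher in line 1 and 10 in line 2, where 11.2% and 14.9% of all genes were higher, and 0 were lower. In control plants the list was mixed, with 2 higher and 4 lower in line 1 and 2 higher and 5 lower in line 2. Of all genes 7.37% were higher and 4.31% lower in line 1, and 7.22% and 5.35% in line 2. Isoflavone 2'-hydroxylase was among the lower ones, at 69.1 ± 3.80 FPKM in line 1 and 68.5 ± 5.22 FPKM in line 2, against 173 ± 44.4 FPKM in WT. The salt effect differed between lines and WT for 8 of the 12, all upward, as for 5.89% of all genes. Within the lines, salt lowered 1 and raised 0 in line 1, and raised 2 and lowered 0 in line 2, where 8.61% and 8.66% of all genes were called.

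The lignan list held 8 tested genes. In WT with salt 2 rose and 2 fell, against 6.35% and 9.91% of all genes. The falls were those of the phenylcoumaran benzylic ether reductases LotjaGi3g1v0509100 and LotjaGi3g1v0509300_LC, which reduce products of phenolic coupling. LotjaGi3g1v0509100 was at 44.9 ± 5.68 FPKM in line 1 and 53.4 ± 4.95 FPKM in line 2, against 13.4 ± 1.04 FPKM in WT, with salt (log2 1.70 and 1.95, limma adjusted p = 1.23e-07 and 2.4e-08). With salt 2 were higher and 1 lower in each line, against 11.2% and 4.77% of all genes in line 1 and 14.9% and 10.2% in line 2. In control plants 0 were called in line 1, against 11.7% of all genes, and 1 was higher in line 2, against 7.22%. The salt effect differed upward for 2, against 5.89% of all genes. Salt changed 0 in either line, where 8.61% and 8.66% of all genes were called.

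The Casparian strip list, without the members, held 21 tested genes, and most were not called. In WT with salt 0 rose and 4 fell, against 16.3% of all genes called, with 6.35% up and 9.91% down. In line 1 salt changed 0 and in line 2 it raised 1, against 8.61% and 8.66% of all genes called. In control plants 1 gene was lower in each line, against 4.31% and 5.35% of all genes lower. With salt 2 were higher and 1 lower in line 1 (16% of all genes called), and 3 were higher and 1 lower in line 2 (25.1%). The salt effect differed upward for 2 genes, against 5.89% of all genes. LotjaGi1g1v0456400 (PBL15, a kinase whose Arabidopsis relative SGN1 acts in the Casparian strip signal) averaged 13.2 ± 3.22 FPKM in line 1 and 14.1 ± 0.291 FPKM in line 2, against 6.02 ± 0.133 FPKM in WT, with salt (log2 1.04 and 1.17, limma adjusted p = 3.84e-05 and 8.42e-06). In control plants it was lower in the lines, at 15.2 ± 1.67 and 15.1 ± 0.750 FPKM, against 21.2 ± 2.69 FPKM in WT (log2 -0.46 and -0.47). The MYB36 gene LotjaGi4g1v0091600 fell in WT to 0.847 ± 0.131 FPKM with salt, against 6.36 ± 0.285 FPKM in control, and was higher in line 1 and line 2 than in WT with salt (log2 1.65 and 1.30). Without salt it averaged 4.19 ± 0.768 FPKM in line 1 and 4.02 ± 0.490 FPKM in line 2, against 6.36 ± 0.285 FPKM in WT, and neither difference was called (log2 -0.56 and -0.61, adjusted p = 0.111 and 0.0788). LotjaGi4g1v0132100 (Peroxidase 64, in Arabidopsis a lignin-forming peroxidase at the strip) was lower in the lines with salt, at 9.89 ± 1.60 FPKM in line 1 and 11.4 ± 1.15 FPKM in line 2, against 16.5 ± 1.79 FPKM in WT (log2 -0.72 and -0.52, adjusted p = 0.00303 and 0.018). In line 2 against line 1 none of the 3 lists had a called gene in either condition. These lists were written with earlier results of these data known, so their counts are a description.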

How the data were processed

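Polyadenylated shoot RNA was sequenced by a dUTP strand-marking protocol, according to the labels. The authors deposited FPKM per gene for 18 libraries with gene lengths, coordinates and descriptions. Per the submitters' processing notes, fastp, featureCounts 1.5.0-p3 and DESeq2 1.20.0 were among the tools. No aligner, genome build or strand setting is named in the labels, and near-identical, antisense or overlapping genes may therefore share or split reads. When FPKM was multiplied by length, 100% of nonzero values came out whole to within 0.05 of a read. From these the depth and the limits for 0 reads (3 reads, counting error only) were taken.

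The test was limma 3.58.1 in R 4.3.3 (eBayes with a trend) on log2(FPKM + 0.5) over 18 libraries and 6 group means, with 12 residual degrees of freedom, two-sided, on the 20433 genes that reached 1 FPKM in 3 or more libraries, with Benjamini-Hochberg adjustment over all of them and a threshold of 0.05. The script was tested on simulated data. Named genes were the Casparian strip membrane proteins and dirigent proteins 9, 10, 16, 18, 24 and 25, the 3 highest and 3 lowest called changes per comparison with a group mean of at least 2 FPKM, the 5 most abundant members, and members within 50 kb of those called. Others are marked where they appear. Members, lists and tests were chosen with earlier results of these data known. Alternatives were pseudocounts of 0.1 and 1, a filter at a mean of 5 FPKM or none, rescaling to TPM or by median of ratios, the compared groups alone, the replicate number as a block, voom on recovered reads, the first principal component of the within-group residuals or the column set as a term, and each library left out. The deposited scaling already followed median-of-ratios factors, so that rescaling was close to the main fit.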

Additional observations from a re-analysis of the deposited data

Results flagged for a closer look

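For 5 members the salt effect differed between the mean of the lines and WT by a direct test of that difference (limma, adjusted over all 20433 genes). LotjaGi1g1v0277900 (Pterocarpan synthase 1) differed by 3.87 on the log2 scale, LotjaGi3g1v0200600 (Dirigent protein 19) by 1.81, LotjaGi1g1v0630200 (CASP-like protein 1F3) by 1.32, LotjaGi3g1v0201000 (Dirigent protein 20) by 1.21 and LotjaGi4g1v0299300 (CASP-like protein 2C1) by 0.90. The adjusted p values were 1.28e-05, 0.0135, 0.0261, 0.00172 and 0.00365 in that order.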

How the results depend on the processing

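Of the 61 called member values, 31 were called under every alternative, 30 were lost under at least 1 and 0 changed sign. The number of members called in line 1 against WT in control was 7, and 4 with only the compared groups in the fit. With salt in line 1 it was 3, and 1 with only the compared groups. With salt in line 2 it was 2, and 1 without the filter, 0 with TPM rescaling and 4 with the first principal component as a covariate. With salt in WT it was 6, and 10 with that covariate. In line 2 against line 1 with salt it was 0, and 1 with the replicate number as a block and 3 with the covariate. The component was taken from the within-group residuals of these same data, so this covariate lowers the residual spread by construction. The cause of the other shifts was not tested. Leaving out 1 library gave 2 to 7 calls in line 1 and 3 to 6 in line 2 against WT in control, 11 to 13 and 14 to 17 with salt, 5 to 6 for salt in WT, 1 to 3 in line 1 and 0 to 2 in line 2, 3 to 6 for the difference in salt effect, and 0 to 0 for line 2 against line 1 in both conditions.

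Same-numbered libraries of different groups did not deviate together (median correlation -0.03 over 45 pairs, from -0.42 to 0.48), so the numbers are not taken as pairs, and with the replicate block the counts were 6, 8, 13 and 17 for the lines against WT. Libraries of the same column set had a median correlation of 0.17 over 67 pairs. Those of different column sets had a median of -0.14 over 68 pairs, from -0.51 to -0.02. The first principal component of these deviations held 30.8% of their variance, and the main fit held no term for it. The term for the column set was chosen after seeing the data and moved no count by more than 1.5 times. Genes under about 1 FPKM can rest on few reads, and the 2 such members with a call, LotjaGi2g1v0355600 and, without the filter, LotjaGi3g1v0454600, had 0 reads in at least 1 WT library.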
